A study of Mus musculus with 12 samples.

Results

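MHC class I antigen presentation was followed through 10 genes in whole mouse retinas after a short elevation of intraocular pressure (IOP). The genes were taken by symbol from the 25124 genes listed in each of the 2 deposited tables of FPKM, and all 10 were found in both. They were H2-K1, H2-D1, B2m, Tap1, Tap2, Tapbp, Psmb8, Psmb9, Psmb10 and Nlrc5. FPKM are uniquely mapped sequence tags per kilobase of transcript, scaled to the total tags of the library, so that levels of different genes can be compared per length. The study asked how age changes the response of the retina to pressure, and whether repeated elevations in young animals change it. All 12 libraries came from wild-type C57BL/6J mice and from bulk retina, 2 libraries to a group. In the single-IOP table, 3mo IOP and 18mo IOP retinas came from animals 3 and 18 months old, collected 2 days after 1 eye had been held at 30 mmHg for 1 h. The 3mo control and 18mo control retinas were the untreated contralateral eyes collected on the same day, so that no library came from an animal without a treated eye. In the repeated-IOP table, 4xIOP retinas had been held at 30 mmHg for 1 h on 4 occasions at intervals of 2 weeks, in animals 3 months old at the start, and were collected 2 days after the last of them with their contralateral 4xIOP control retinas. The labels do not tie libraries to animals, and the p-values measure the spread between these libraries only.

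MHC class I molecules show short peptides from inside the cell at its surface, where cytotoxic T cells and natural killer cells read them. The peptides are cut by the proteasome, carried into the endoplasmic reticulum by a transporter made of 2 chains, and loaded onto a heavy chain that is paired with beta-2 microglobulin. Neurons of the healthy retina carry little class I, microglia and endothelium carry more, and interferons raise the whole route through the transcription factors of the STAT and IRF families and through Nlrc5, the transactivator of class I promoters.

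Of the 10 genes, 7 lie on chromosome 17 in mm10, within or close to the MHC. Psmb9 (chr17:34182099-34187330, minus strand), Tap1 (chr17:34187556-34197225, plus strand), Psmb8 (chr17:34198195-34201454, plus strand) and Tap2 (chr17:34204479-34216321, plus strand) follow each other, with 225 bases between the starts of Psmb9 and Tap1, 969 between Tap1 and Psmb8 and 3024 between Psmb8 and Tap2. Tapbp (chr17:33919478-33929290, plus strand) and H2-K1 (chr17:33996012-34000347, minus strand) lie on one side of them, and H2-D1 (chr17:35263094-35267497, plus strand) on the other. B2m lies apart at chr2:122147687-122153082 on the plus strand. Psmb10 (chr8:105935728-105938392, minus strand) and Nlrc5 (chr8:94472763-94527272, plus strand) are on chromosome 8.

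Promoters from RefSeq (GRCm38.p6, the assembly of mm10) were at hand for 8 of the 10 genes, all but Tap2 and Nlrc5. The 250 bases before the start were searched on both strands for 5 motifs of interferon and class I control, namely the interferon-stimulated response element (GAAA and GAAA with any 2 bases between), GAANNGAAA (core of the interferon response element), TTCNNNGAA (STAT site), CCAAT and the NF-kB site. Across 32817 promoters, windows of the same length held these in 2.97%, 6.31%, 7.01%, 33.8% and 7.25% respectively. The promoters of H2-K1 (chr17:34000348-34000547, minus strand), H2-D1 (chr17:35262894-35263093, plus strand) and B2m (chr2:122147487-122147686, plus strand) are shown because their genes had the highest levels of the 10 in treated retinas and all held an interferon element beside an NF-kB site. The stretch between Psmb9 and Tap1 (chr17:34187331-34187555, plus strand) is shown because it is all that separates these 2 genes. Capitals mark matches to the motifs, 5′ to 3′ on the strand of the gene named.
H2-K1: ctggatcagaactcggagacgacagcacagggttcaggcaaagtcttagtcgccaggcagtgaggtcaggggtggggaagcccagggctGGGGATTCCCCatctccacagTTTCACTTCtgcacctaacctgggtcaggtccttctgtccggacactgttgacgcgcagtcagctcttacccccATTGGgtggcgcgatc
H2-D1: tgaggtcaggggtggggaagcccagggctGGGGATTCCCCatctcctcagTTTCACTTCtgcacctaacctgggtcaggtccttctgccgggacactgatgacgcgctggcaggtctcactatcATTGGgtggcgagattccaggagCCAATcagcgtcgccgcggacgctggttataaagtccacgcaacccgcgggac
B2m: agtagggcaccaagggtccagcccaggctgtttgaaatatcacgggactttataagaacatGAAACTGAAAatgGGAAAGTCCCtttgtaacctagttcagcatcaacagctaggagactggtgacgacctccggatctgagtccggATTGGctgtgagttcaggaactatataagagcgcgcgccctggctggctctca
Tap1: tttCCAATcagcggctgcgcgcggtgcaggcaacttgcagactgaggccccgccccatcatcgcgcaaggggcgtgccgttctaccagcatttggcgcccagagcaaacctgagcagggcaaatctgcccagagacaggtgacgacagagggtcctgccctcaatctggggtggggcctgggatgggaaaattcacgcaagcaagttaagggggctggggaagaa

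In H2-K1 a double NF-kB match, whose 2 copies overlap, lay 111 to 101 bases before the start, the interferon response element core 90 to 82 bases before it, and CCAAT on the opposite strand 16 to 12 bases before it. In H2-D1 the same NF-kB and interferon letters lay 171 to 161 and 150 to 142 bases before the annotated start. Shifted by 60 bases, the promoters of H2-K1 and H2-D1 had 127 of 140 bases in common (90.7%). In B2m the interferon-stimulated response element came first, 139 to 130 bases before the start, followed by the NF-kB site at 126 to 117. The stretch between Psmb9 and Tap1 held CCAAT alone, 8 to 4 bases before the start of Psmb9. Psmb8 held a STAT site 97 to 89 bases before its start, Tapbp held CCAAT in 2 places, and Psmb10 held none of the 5 motifs. No matches to different motifs overlapped in these promoters. A match is a run of letters and was not tested for binding.

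Depth, recovered from the FPKM values, lay between 39766232 and 59455046 tags, with 44.18% to 71.52% of them in exons. The lowest of the 120 values of the 10 genes rested on 8 reads (Nlrc5 in 3mo control replicate 2), above the 3 reads taken as the limit of measurement. Libraries differed in the ratio of the median FPKM of short transcripts (under 1000 bases) to that of long ones (at least 4000 bases), which was 1.89 and 4.70 in the 3mo control, 3.26 and 2.99 in the 3mo IOP, and between 1.198 and 2.196 in the other 8 libraries. H2-K1 and H2-D1 are close copies, and 9.07% and 14.3% of their 50-base windows also occur in other transcripts. H2-D1 further overlaps H2-L on the same strand. With uniquely mapped tags a part of their reads may be lost or exchanged, and the split between these genes is uncertain.

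In what follows each pair of values gives replicate 1 and then replicate 2, and the 4xIOP libraries are those of the repeated-IOP table. In bulk tissue more cells of a type and more RNA per cell cannot be told apart. The heavy chains H2-K1 and H2-D1, which hold the peptide, had overlapping levels in each group of the single-IOP table, while H2-D1 was above H2-K1 within each library of the repeated-IOP table. H2-K1 was at 10.1 and 13.9 FPKM in the 3mo control libraries, 51.1 and 33.6 after 3mo IOP, 37.6 and 41.6 in the 18mo control pair, and 85.5 and 112.5 after 18mo IOP. H2-K1 was at 7.27 and 9.07 FPKM in the 4xIOP control libraries and 125.9 and 70.2 in 4xIOP. Every treated pair of libraries was above its contralateral pair with no overlap, and the 3mo control pair was the lowest of the single-IOP table. H2-D1 was at 12.3 and 11.7 FPKM in the 3mo control libraries, 49.0 and 35.9 after 3mo IOP, 35.5 and 48.2 in the 18mo control pair, and 91.1 and 150.2 after 18mo IOP. H2-D1 was at 13.1 and 13.9 FPKM in the 4xIOP control libraries and at 179.5 and 109.9 in 4xIOP. For both heavy chains the levels of untreated 18-month retinas overlapped those of treated 3-month retinas.

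B2m, the light chain shared by all class I molecules, was at 80.6 and 85.6 FPKM in the 3mo control libraries, 282 and 251 after 3mo IOP, 96.8 and 122.7 in the 18mo control pair, and 286 and 193 after 18mo IOP. B2m was at 15.3 and 15.7 FPKM in the 4xIOP control libraries and at 169.6 and 119.4 in 4xIOP. Treated and control libraries did not overlap at either age or after repeated IOP, while the treated libraries of the 2 ages did. The lower B2m of the 4xIOP control is a level in another table, and its cause was not tested. The libraries of that table had 44.18% to 53.74% of their tags in exons, beside 65.98% to 71.52% in the single-IOP table.

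Tap1 and Tap2, the chains of the peptide transporter, differed in where they were high. Tap1 was at 0.566 and 0.542 FPKM in the 3mo control libraries, 5.48 and 2.95 after 3mo IOP, 1.62 and 1.88 in the 18mo control pair, and 2.58 and 8.87 after 18mo IOP. Tap1 was at 0.454 and 0.828 FPKM in the 4xIOP control libraries and 23.8 and 11.8 in 4xIOP. The treated libraries of Tap1 were apart from their controls in all 3 pairs of groups, and the 18mo IOP libraries were far apart from each other. Tap2 was at 1.46 and 1.16 FPKM in the 3mo control libraries, 2.84 and 2.61 after 3mo IOP, 7.10 and 7.23 in the 18mo control pair, and 9.93 and 11.4 after 18mo IOP. Tap2 was at 2.25 and 2.82 FPKM in the 4xIOP control libraries and 10.9 and 7.24 in 4xIOP. In the single-IOP table all 18mo control and 18mo IOP libraries were above all 3mo control and 3mo IOP libraries for Tap2.

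Tapbp, the tapasin that bridges the transporter and the empty heavy chain, was at 12.4 and 9.80 FPKM in the 3mo control libraries, 23.1 and 18.0 after 3mo IOP, 19.8 and 20.9 in the 18mo control pair, and 29.1 and 41.8 after 18mo IOP. Tapbp was at 11.9 and 13.0 FPKM in the 4xIOP control libraries and 44.8 and 31.9 in 4xIOP. Its treated libraries were above their controls without overlap in each pair of groups.

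Psmb8, Psmb9 and Psmb10 code for the catalytic subunits of the immunoproteasome. Psmb8 was at 1.23 and 2.24 FPKM in the 3mo control libraries, 8.23 and 7.27 after 3mo IOP, 3.15 and 3.13 in the 18mo control pair, and 7.69 and 9.26 after 18mo IOP. Psmb8 was at 1.10 and 1.77 FPKM in the 4xIOP control libraries and 18.1 and 12.9 in 4xIOP. Its treated libraries were above their controls in every pair of groups, and those of the 2 ages overlapped. Psmb9 was at 0.694 and 1.57 FPKM in the 3mo control libraries, 6.87 and 3.34 after 3mo IOP, 1.37 and 1.58 in the 18mo control pair, and 2.56 and 6.09 after 18mo IOP. Psmb9 was at 0.756 and 0.533 FPKM in the 4xIOP control libraries and 14.2 and 8.89 in 4xIOP. Its untreated libraries of the 2 ages overlapped. Psmb10 was at 4.03 and 12.6 FPKM in the 3mo control libraries, 15.4 and 10.95 after 3mo IOP, 3.08 and 3.00 in the 18mo control pair, and 5.90 and 7.82 after 18mo IOP. Psmb10 was at 4.21 and 3.66 FPKM in the 4xIOP control libraries and 15.0 and 15.5 in 4xIOP. For Psmb10 the second 3mo control library lay inside the 3mo IOP range. It is the library with the highest ratio of short to long transcripts, and with the transcript length trend removed Psmb10 moved from 0.81 to 0.70 in 3mo IOP against 3mo control and from -1.12 to -0.56 in 18mo control against 3mo control, both on the log2 scale.

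Nlrc5 had the lowest mean level of the 10 genes in every group, with a range that overlapped Tap2 in 4xIOP. Nlrc5 was at 0.049 and 0.024 FPKM in the 3mo control libraries, 0.745 and 0.533 after 3mo IOP, 0.119 and 0.248 in the 18mo control pair, and 0.623 and 2.33 after 18mo IOP. Nlrc5 was at 0.047 and 0.140 FPKM in the 4xIOP control libraries and 8.59 and 2.95 in 4xIOP. The treated libraries were above their controls with no overlap in each of the 3 pairs.

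**Figure D1:**
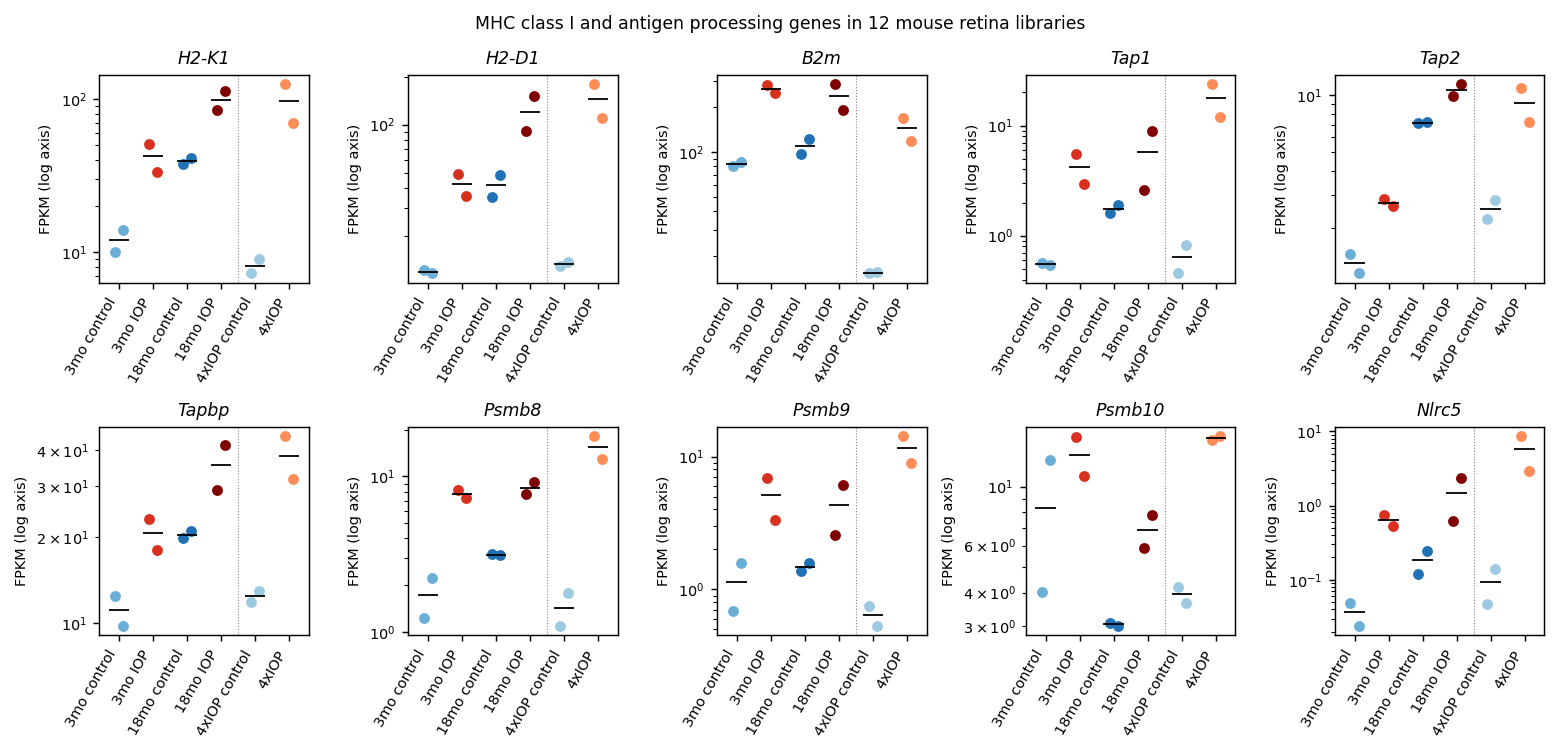
FPKM of each of the 10 genes on a log axis in the 12 libraries, 1 point per library and a black bar at the mean of the 2 libraries of a group, with a dotted line between the 2 tables. Treated points lie above those of their own controls for every gene but Psmb10 at 3 months, and the control points of Tap2, H2-K1 and H2-D1 are higher at 18 months than at 3 months.

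By level in FPKM, B2m led every group of the single-IOP table, apart from all other genes, with means between 83.1 and 266 FPKM. H2-D1 and H2-K1 came next and overlapped each other in all 4 groups. Tapbp held the fourth place there, overlapping H2-K1 and Psmb10 in the 3mo control and apart from its neighbours in the other 3 groups. Below it the order changed with age. In 3mo control Psmb8, Tap2 and Psmb9 (means of 1.73, 1.31 and 1.13 FPKM) overlapped their neighbours in that order, whereas in 18mo control Tap2 stood alone in the fifth place at 7.17 FPKM. In 4xIOP H2-D1, B2m and H2-K1 had means of 144.7, 144.5 and 98.1 FPKM with overlapping ranges.

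Calls come from limma, on log2(FPKM + 0.5). They ask for a p of 0.05 or less after Benjamini-Hochberg adjustment over all genes tested and for an absolute log2 fold change of 1 or more. The added 0.5 makes the change of low genes such as Nlrc5 and Tap1 smaller than their ratio of FPKM. All 10 genes passed the filter of a mean of 0.5 FPKM in both tables, Nlrc5 only through its treated libraries, since its mean was under 0.5 FPKM in each control group. A gene that passes only through the group where it is high had to differ. Against control, Nlrc5 thus adds nothing to a count of genes called, without overlap or with a low p.

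After a single elevation at 3 months the heavy chains, B2m and Psmb8 rose. The log2 fold changes in 3mo IOP against 3mo control were 1.77 ± 0.26 (SE) for H2-K1, 1.76 ± 0.28 for H2-D1, 1.67 ± 0.25 for B2m and 1.92 ± 0.24 for Psmb8, with adjusted p in limma of 0.0325, 0.0401, 0.0331 and 0.0293. Thus 4 of 10 were called higher, where 0.568% of 13731 genes were, but none of the 10 was called with no filter on low values, median-of-ratios size factors, quantile normalization, voom on the recovered reads or the replicate block. The other 6 were not called. On this scale Tap1 had the largest estimate, 2.11 ± 0.48 (limma adjusted p = 0.131), followed by Psmb9 at 1.76 ± 0.45 (0.180) and Nlrc5 at 1.08 ± 0.40 (0.459). As a ratio of mean FPKM Nlrc5 was the highest, 17.5 against 7.61 for Tap1, and with voom on the recovered reads its log2 fold change was 3.95 against 2.68 for Tap1. Tapbp, Tap2 and Psmb10 had estimates between 0.81 and 0.86, with limma adjusted p between 0.104 and 0.740. Psmb10 depended on 1 control library, with an estimate of 0.04 without 3mo control replicate 1 and of 1.57 (limma adjusted p = 0.0453) without 3mo control replicate 2. In 9 of 10 genes, all but Psmb10, both treated libraries were above both control libraries, where 28.6% of all genes had this order. The median over the 10 was 1.72 (log2) and over all tested genes 0.14. The calls were also lost when 1 library was left out, as none of the 10 was called without 3mo control replicate 1, without 3mo IOP replicate 1 or without 3mo IOP replicate 2.

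At 18 months all 10 genes had higher values in both 18mo IOP libraries than in both 18mo control libraries, an order found in 36.5% of all genes, but none of the 10 was called in limma, where 0.117% of all genes were called higher. All 10 had an unadjusted p under 0.05 in limma, against 8.71% of all genes in the same direction. Nlrc5, with an 18mo control mean of 0.18 FPKM, adds nothing to the counts of genes given here. Voom on the recovered reads called none of the 10 either, but the count changed with the transcript length trend removed. A replicate block with crossed numbers, added after seeing the data, called 4. The log2 fold changes lay between 0.54 ± 0.18 (Tap2) and 1.49 ± 0.28 (H2-D1), with adjusted p between 0.101 (Psmb8) and 0.492 (Psmb10). Ratios of mean FPKM were 2.5 for H2-K1, 2.88 for H2-D1, 2.18 for B2m and 8.05 for Nlrc5. The median of the 10 was 1.22 (log2) beside 0.09 over all tested genes. The 18mo IOP libraries differed most from each other in Nlrc5 and Tap1, and without 18mo IOP replicate 1 the fit called H2-D1, Tap1 and Nlrc5.

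After 4 elevations all 10 genes rose (9 of 9 with Nlrc5 left out), where 5.45% of 13718 genes were called higher. With the pseudocount of 0.5 Tap1 had the largest change, 3.94 ± 0.29 (log2, SE), a ratio of mean FPKM of 27.8 (limma adjusted p = 1.657e-06). Psmb9 and Psmb8 rose by 3.37 ± 0.24 and 3.05 ± 0.24, H2-K1, H2-D1 and B2m by 3.46 ± 0.31, 3.33 ± 0.31 and 3.16 ± 0.29, and Nlrc5 by 3.24 ± 0.35. The ratio of mean FPKM was 61.7 for Nlrc5, the highest of the 10, whose log2 fold change also passed that of Tap1 with a pseudocount of 0.1 (4.78 against 4.56) and with voom (5.79 against 4.64). It was between 9.35 and 17.9 for the 5 genes named before it. Psmb10, Tap2 and Tapbp changed least, by 1.83 ± 0.21, 1.64 ± 0.23 and 1.57 ± 0.26, with limma adjusted p of 6.088e-05, 0.0003676 and 0.001487. No library of 4xIOP overlapped a control library for any of the 10, against 27.7% of all genes with both treated libraries higher. The median of the 10 was 3.20 and that of all tested genes 0.10. Under 12 other settings of the fit all 10 were called, and 9 without either 4xIOP control library in turn, when Tapbp missed the threshold.

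**Figure D2:**
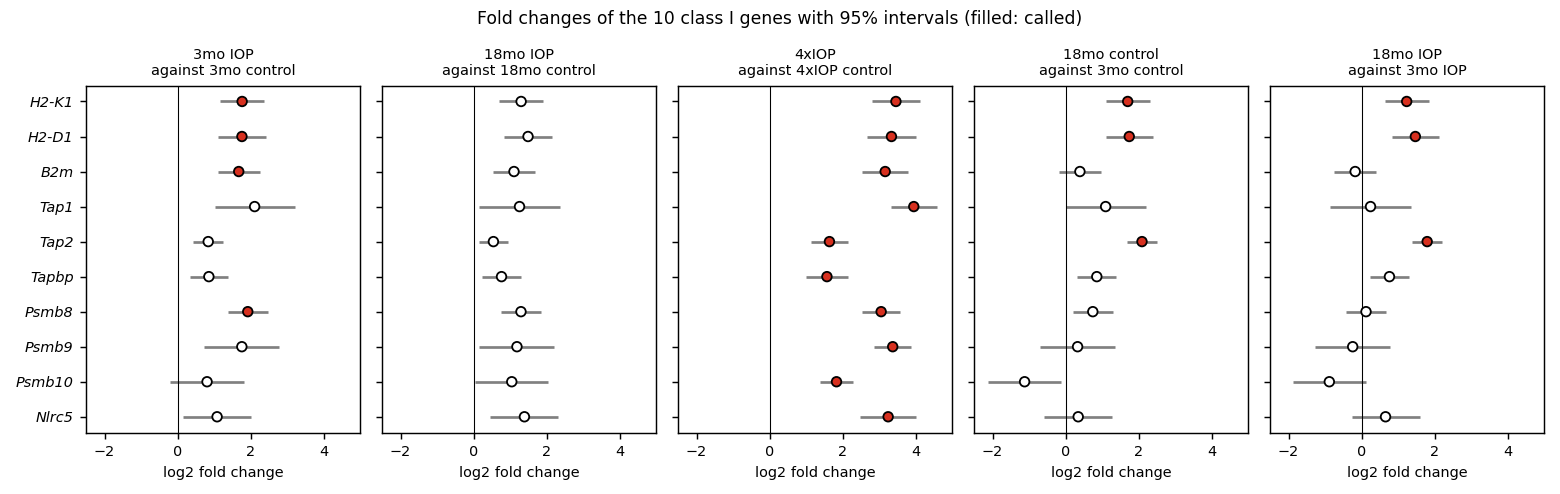
Log2 fold change of each gene (point) with its 95% interval from limma (line) in 5 comparisons, filled where called. In 4xIOP all 10 points are filled and lie between 1.57 and 3.94, and at 18 months IOP leaves all 10 unfilled with every interval above 0.

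Single and repeated elevation were fitted in different tables and their difference was not tested. Side by side, Tap1, Psmb9 and Psmb8 had log2 fold changes of 2.11, 1.76 and 1.92 after a single elevation at 3 months and of 3.94, 3.37 and 3.05 after 4. Tapbp and Tap2 had 0.86 and 0.84 after a single elevation and 1.57 and 1.64 after 4. Estimates were higher in 4xIOP for each of the 10 genes.

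In untreated eyes, Tap2, H2-D1 and H2-K1 were higher at 18 than at 3 months. Their log2 fold changes in 18mo control against 3mo control were 2.09 ± 0.18 (SE), 1.74 ± 0.28 and 1.70 ± 0.26, with limma adjusted p of 0.00265, 0.00569 and 0.00543. These were the 3 of 10 called higher, beside 11.6% of all genes. Tapbp (0.85 ± 0.23) and Psmb8 (0.74 ± 0.24) had limma adjusted p of 0.0197 and 0.0354 but were below the fold change asked for. By adjusted p alone, 5 of the 10 were thus higher, beside 26.7% of all genes. B2m, at 0.39 ± 0.25 (limma adjusted p = 0.225), Tap1, at 1.09 ± 0.48 (0.0915), and Psmb9 and Nlrc5, at 0.33 and 0.34, were not called. Psmb10 had the opposite sign, -1.12 ± 0.44 (limma adjusted p = 0.0641), with both 18mo control libraries below both 3mo control libraries, an order seen in 32.8% of all genes. That estimate was -0.36 without 3mo control replicate 2 and -1.89 (limma adjusted p = 0.00125) without 3mo control replicate 1. In 8 of 10 genes the 18mo control libraries were both higher, an order held by 45.7% of all genes. The median was 0.80 for the 10 and 0.16 over all tested genes.

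The age comparison depended on the transcript length trend of the libraries. With that trend removed from each library, 6 of 10 were called, since B2m, Psmb8 and Psmb9 moved to 1.27, 1.34 and 1.25, Psmb10 moved to -0.56 and Nlrc5 turned to -0.09. Without 3mo control replicate 1, 5 were called, among them Psmb10 as lower.

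Between treated eyes, the same 3 genes were called at 18 against 3 months. Tap2 had a log2 fold change of 1.79 ± 0.18 in 18mo IOP against 3mo IOP, H2-D1 of 1.47 ± 0.28 and H2-K1 of 1.23 ± 0.26 (limma adjusted p of 0.00195, 0.00851 and 0.0109), where 10.2% of all genes were called higher. B2m, Tap1, Psmb8, Psmb9 and Nlrc5 overlapped between the ages, with estimates between -0.25 and 0.65. Both 18mo IOP libraries were above both 3mo IOP libraries in 4 of the 10 (43.2% of all genes) and below them in 1, Psmb10 at -0.89 ± 0.44 (34.5% of all genes). The number called was 1, Tap2, without 3mo IOP replicate 2 and 5 without 18mo IOP replicate 1.

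The interaction of IOP with age, the difference between the log2 fold changes at 18 and at 3 months, was called for none of the 10 and for none of 13731 genes (0%) in limma, and 1.59% of all genes had an unadjusted p under 0.05. None of the 10 had one, and voom called none either. The estimates ran from -0.85 for Tap1 (95% interval -2.40 to 0.70) to 0.31 for Nlrc5 (-1.005 to 1.625), each with a limma adjusted p of 0.9999. For H2-K1 the interval was -1.31 to 0.38, for B2m -1.38 to 0.24 and for Psmb8 -1.40 to 0.15. These widths leave room for a difference between the ages of over 1 on the log2 scale.

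The immunoproteasome subunits replace the constitutive subunits Psmb5, Psmb6 and Psmb7 in newly built proteasomes. The ratios within a library do not depend on its scaling, but can depend on its transcript length trend. Psmb8 to Psmb5, as a ratio of FPKM, came to 0.0410 and 0.0280 in 3mo control retinas, 0.124 and 0.155 after 3mo IOP, 0.172 and 0.160 in the 18mo control pair, and 0.354 and 0.409 after 18mo IOP. The ratio of Psmb8 to Psmb5 was 0.0299 and 0.0598 in 4xIOP control and 0.540 and 0.236 in 4xIOP. Treated libraries were thus above their controls in each pair of groups, and in the single-IOP table the 18mo control libraries were above the 3mo IOP ones. Psmb9 to Psmb6 rested at 0.00631 and 0.00576 in 3mo control and reached 0.0292 and 0.0183 in 3mo IOP, and 0.195 and 0.0732 in 4xIOP from 0.0093 and 0.00795. At 18 months Psmb9 to Psmb6 was 0.0236 and 0.0312 in control and 0.0385 and 0.0852 in IOP retinas. Psmb10 to Psmb7 was 0.0431 and 0.0787 in 3mo control and 0.111 and 0.0859 in 3mo IOP. It was 0.0767 and 0.0772 in 18mo control, within the 3mo control range, and 0.135 and 0.173 in 18mo IOP. In the repeated-IOP table it was 0.0813 and 0.0883 in 4xIOP control and 0.345 and 0.218 in 4xIOP.

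The constitutive subunits themselves were called with IOP in no comparison, with log2 fold changes between 0.12 and 0.37 over the 3 genes and the 3 IOP comparisons. With age all 3 were called lower, beside 11.6% of all genes, at -1.67 (Psmb6), -1.62 (Psmb7) and -1.35 (Psmb5) in untreated eyes. The higher ratios of Psmb8 and Psmb9 at 18 months therefore include a lower denominator, and the effect of the transcript length trend on these 3 genes was not tested.

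The sum of the heavy chains H2-K1 and H2-D1 relative to B2m, again as a ratio of FPKM, was 0.278 and 0.300 in 3mo control and 0.355 and 0.278 in 3mo IOP, which overlap. At 18 months it was 0.755 and 0.732 in control and 0.616 and 1.36 in IOP retinas, all 4 above the 3mo control and 3mo IOP libraries. In animals 3 months old at the start, however, it was 1.34 and 1.46 in 4xIOP control and 1.80 and 1.51 in 4xIOP, all above the untreated 18-month libraries, so that this ratio did not order the 12 libraries by age. B2m (852 bases) is shorter than H2-K1 (1623) and H2-D1 (1726). In the single-IOP table the ratio of short to long transcripts was 1.89 to 4.70 at 3 months and 1.198 to 1.359 at 18 months. With the transcript length trend removed, the age estimate of B2m in untreated eyes moved from 0.39 to 1.27. The effect of that trend on the ratio of heavy chains to B2m was not tested.

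**Figure D3:**
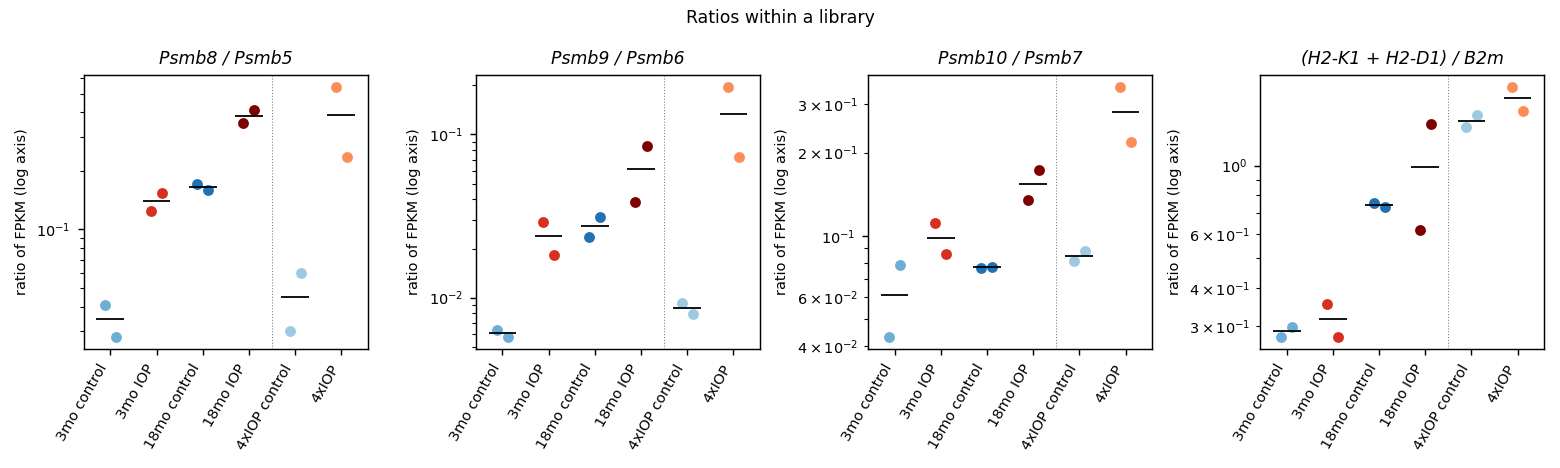
Ratios of FPKM within each library on log axes, with a bar at the mean of each group and a dotted line between the tables: each immunosubunit over its constitutive counterpart, and the heavy chains over B2m. Psmb8 over Psmb5 lies at 0.0299 and 0.0598 in 4xIOP control and at 0.540 and 0.236 in 4xIOP, and the heavy chains over B2m overlap between 3mo control and 3mo IOP.

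Of 23 other class I and class I-like molecules, 16 were tested. In 3mo IOP 2 of the 16 were called higher (0.568% of all genes), H2-T23 at 1.85 and H2-Q4 at 1.76 (log2). In 18mo IOP none was called, and H2-Q4 and H2-T23 had 1.29 and 1.17 with limma adjusted p of 0.101 and 0.157. In 4xIOP 12 of the 16 were called higher (5.45% of all genes), but 7 of the 16 passed the filter only through 4xIOP, and 5 of the other 9 were called. The calls with the largest changes were H2-L (3.39), H2-Q4 (3.31), H2-Q7 (3.14) and H2-Q9 (2.87). Of these, H2-Q7 and H2-Q9 passed the filter only through 4xIOP. In untreated eyes 6 of 16 were called higher with age (11.6% of all genes), the largest being H2-Q4 at 2.50, H2-T23 at 1.76 and H2-L at 1.75. In treated eyes 7 of 16 were called higher with age (10.2% of all genes), 6 of them with a mean of at least 0.5 FPKM in 3mo IOP. H2-Q4 and H2-T23 code for non-classical class I chains. Members of the H2-Q family are close copies of each other, and H2-L overlaps H2-D1, so that the reads behind these rows are not all separate. The H2-L row followed that of H2-D1 closely. Its log2 fold changes of 3.39 in 4xIOP and 1.75 with age in untreated eyes stood beside 3.33 and 1.74 for H2-D1. The counts of calls in 4xIOP and with age include H2-L, whose calls cannot be taken as separate from those of H2-D1.

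Of 18 other genes of peptide supply and loading, such as chaperones, peptidases and proteasome regulators, none was called with single IOP at either age. Psme1, a subunit of the interferon-induced proteasome activator, was the only one of the 18 called in 4xIOP, at 1.08 (limma adjusted p = 0.0113), while its partner Psme2 had 0.55 (0.180). A single call of 18 is near the 5.45% of all genes called higher there. With age in untreated eyes, 1 was called higher, the peptidase Npepps at 1.02, and 3 lower, the proteasome assembly factor Pomp at -1.88, the translocon subunit Sec61b at -1.72 and the proteasome subunit Psma1 at -1.40. Over all genes 11.6% were called higher and 11.6% lower, so that these counts do not set the list apart.

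**Figure D4:**
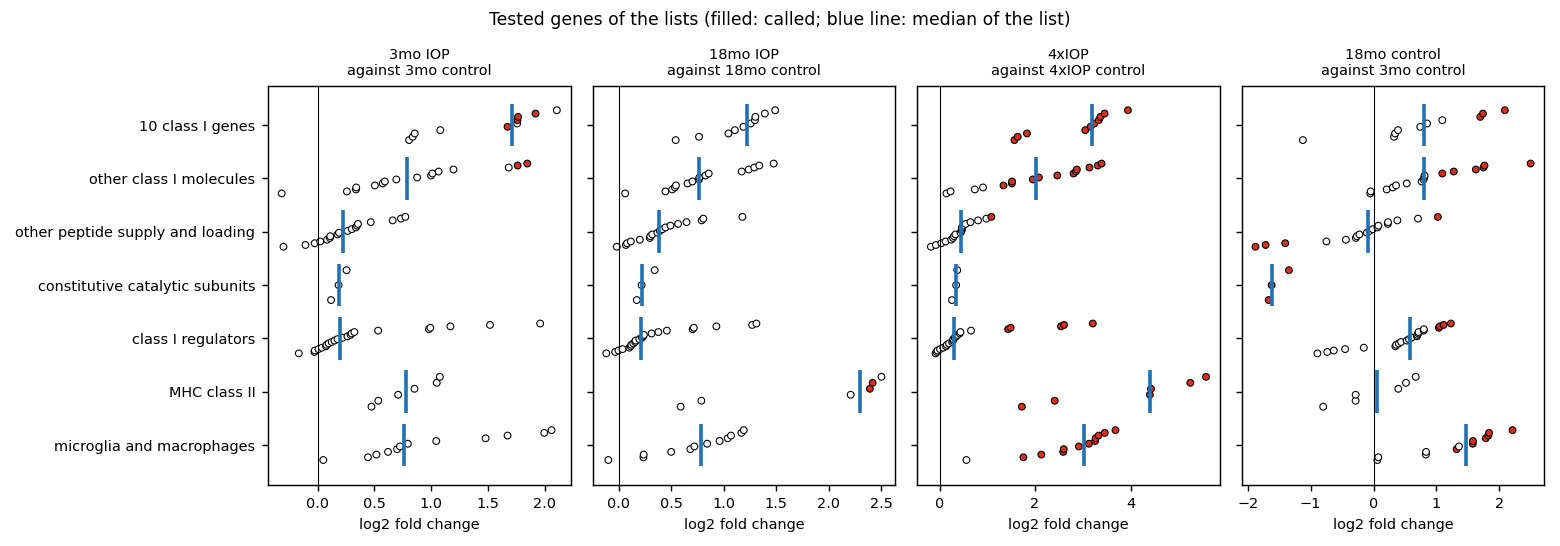
Log2 fold changes of the tested genes of 7 lists (points, filled where called) with the median of each list (blue line) in 4 comparisons. In 4xIOP the medians are 3.20 for the 10 class I genes and 0.35 for the constitutive subunits, and in other class I molecules and MHC class II 7 of 16 and 5 of 6 genes passed the filter only through 4xIOP.

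Of 22 regulators of class I promoters and of the interferon route, all were tested and 5 were called higher in 4xIOP, beside 5.45% of all genes. Among them Irf9 and Stat2, parts of the complex that type I interferon sends to the nucleus, rose by 3.21 and 1.49, Irf1 by 2.54, and the interferon receptor chain Ifnar2 by 1.44. Irf1 is a factor that binds interferon response elements. Irf1 had a log2 fold change of 1.52 in 3mo IOP (limma adjusted p = 0.0531) and of 1.31 in 18mo IOP (0.115), and was called in neither. With age in untreated eyes 4 of 22 were called higher, beside 11.6% of all genes, Rela at 1.23, Stat2 at 1.11, Tyk2 at 1.06 and Nfkb1 at 1.04.

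None of 7 interferon ligand genes passed the filter. Ifng was at 0 reads in 11 libraries and at 4 reads in 4xIOP replicate 1. Ifnb1 was at 0 reads in all 3-month libraries, at 2 and 2 in 18mo control, and at 14 and 16 in 18mo IOP. The limit of 3 reads lies above the 18mo control values, and limits cover counting error only.

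Summed markers of microglia and macrophages, cells that carry class I, were higher in the same groups, though not every marker was. The retina was present by its markers, since 7 rod photoreceptor genes summed to between 4614 and 23398 FPKM in the 12 libraries. That sum was 15281 to 17132 FPKM in 18mo control and 11618 to 13779 in 18mo IOP, and 9343 to 9762 in 4xIOP control and 4614 to 6961 in 4xIOP. The median log2 fold change of the 7 was -0.35 in 18mo IOP and -0.82 in 4xIOP, beside 0.09 and 0.10 over all tested genes. In each of these pairs Sag alone had an estimate above 0, and none of the 7 was called. In 4xIOP Nrl was at -1.35 (limma adjusted p = 0.0541). The 12 microglia and macrophage markers summed to 21.4 to 33.4 FPKM in 3mo control and 77.3 to 95.9 in 3mo IOP, 81.1 to 93.8 in 18mo control and 126 to 254 in 18mo IOP. The sum of these markers was 10.8 to 11.7 FPKM in 4xIOP control and 135 to 139 in 4xIOP. Of the 12, none was called with single IOP at either age (0.568% and 0.117% of all genes called higher), 11 were called higher in 4xIOP (5.45% of all genes), with Aif1 at 3.46 and Ptprc, the pan-leukocyte marker, at 2.92, and 7 were called higher with age in untreated eyes (11.6% of all genes). In 4xIOP and with age 5 of the 12 had a mean under 0.5 FPKM in the lower group, and the calls among the other 7 were 6 and 5. Aif1 and Ptprc were among those 5 in 4xIOP, with 4xIOP control means of 0.41 and 0.0425 FPKM, and passed the filter only through 4xIOP. Of the 6 calls in 4xIOP that remain, C1qb had the largest change, 3.68. The largest share of the sum in 3mo IOP came from C1qa, C1qb and C1qc, with means of 19.1, 28.4 and 20.2 FPKM. In 3mo IOP 11 of the 12 were higher with no overlap (28.6% of all genes), though 5 of the 12 had a 3mo control mean under 0.5 FPKM. The exception was P2ry12, a marker of resting microglia, with a log2 fold change of 0.05. In 18mo IOP 8 of the 12 were higher with no overlap (36.5% of all genes). P2ry12, Tmem119, Cx3cr1 and Csf1r overlapped between 18mo IOP and 18mo control. The part of microglia in the class I values was not tested.

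T and NK cell markers were near the limit in most libraries. None of the 13 was tested, and their summed FPKM was 0.175 to 0.230 in 3mo control, 0.267 to 0.430 in 3mo IOP, 0.270 to 0.574 in 18mo control, 0.243 to 0.666 in 18mo IOP, 0.075 to 0.085 in 4xIOP control and 0.743 to 2.79 in 4xIOP. Cd3e had 11 reads in 4xIOP replicate 1, 0 in 4xIOP replicate 2 and at most 3 in any other library. Cd8a, a chain of the co-receptor for class I, had between 0 and 33 reads. The 4 B cell markers summed to at most 0.403 FPKM in any library, and none was tested.

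Neutrophil and monocyte markers, 6 in all, summed to 0.158 to 0.330 FPKM in 4xIOP control and 43.5 to 48.2 in 4xIOP, with log2 fold changes of 5.39 for S100a8 and 4.60 for S100a9. The 5 tested passed the filter only through 4xIOP, so their calls are not counted. In the single-IOP table none of them was called with IOP. Their sum was 0.650 to 0.746 FPKM in 3mo control and 1.04 to 2.34 in 3mo IOP, and 0.797 to 1.53 in 18mo control and 3.98 to 4.71 in 18mo IOP, with no overlap at either age. At 18 months S100a8 was listed at 0 in both control libraries and had a mean of 1.37 FPKM in the IOP libraries, and S100a9 had means of 0.127 and 1.36 FPKM. MHC class II, which presents peptides from outside the cell, had 6 of 11 genes tested in 4xIOP, of which 5 passed the filter only through 4xIOP, with Cd74 at 5.58 and H2-Aa at 5.25 (log2). In 18mo IOP 2 of 6 were called higher (0.117% of all genes), Cd74 at 2.42 and H2-Aa at 2.39. In 3mo IOP none of the 6 was called. The sum of the lens markers, of which 4 of the 6 tested passed the filter only through 4xIOP, was 0.489 to 4.59 FPKM in 4xIOP control and 51.0 to 115 in 4xIOP. Retinal pigment epithelium markers summed to 26.6 to 35.9 FPKM in 4xIOP control and 2.77 to 5.94 in 4xIOP. In 3mo IOP none of the 6 tested pigment epithelium markers was called, but Pmel and Tyrp1, genes of pigment granules, did not overlap between the groups. Pmel was at 8.86 and 2.90 FPKM in 3mo control and 76.2 and 27.2 in 3mo IOP (log2 fold change 3.03, limma adjusted p = 0.161), and Tyrp1 at 11.8 and 3.11 and at 73.8 and 32.2 FPKM (2.89, 0.115). The other 4 overlapped, with estimates below 0. The part of leukocytes, lens, pigment epithelium or rods in the class I values was not tested.

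Other markers moved with age. In untreated eyes 6 of 7 endothelial markers were called higher with age (11.6% of all genes), 4 of them with a mean of at least 0.5 FPKM in 3mo control, the sum being 10.2 to 12.7 FPKM in 3mo control and 58.3 to 60.4 in 18mo control. Retinal pigment epithelium markers summed to 174 to 193 and 2.85 to 9.73 FPKM in these groups. Of the retinal ganglion cell markers 5 of 7 were called lower, beside 11.6% of all genes. Of the 7 Muller glia markers 3 were called higher with age in untreated eyes (11.6% of all genes) and 5 in treated eyes (10.2%). With IOP 1 was called, in 4xIOP (5.45%). There 5 were higher with no overlap (27.7% of all genes) and the other 2 had estimates below 0. In 18mo IOP none was called (0.117% of all genes called higher) and 5 were higher with no overlap (36.5%). The sum of the 7 was 1688 to 2088 FPKM in 18mo control and 3016 to 3144 in 18mo IOP. The 5 blood markers summed to 166 to 426 FPKM in 18mo control and 44.3 to 54.3 in 18mo IOP. The part of these cells in the age differences of Tap2, H2-K1 and H2-D1 was not tested.

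Profiles over the 12 libraries were compared by the root mean square difference from the median profile of the 10 genes, on log2(FPKM + 0.5) centred within each table, among 13059 genes tested in both. Psmb8 was nearest of all at 0.20, and Psmb10 farthest of the 10 at 0.86, in rank 674. Tap2 (0.78, rank 456) and Tapbp (0.56, rank 153) were also distant, and the other 7 were within rank 50. The 8 nearest genes outside the 10 were Irf1 (0.23), Arpc1b (0.24), Irf8 (0.25), Fcgr4 (0.26), Fcgr2b (0.27), Antxr2 (0.29), Ms4a6d (0.30) and Slfn2 (0.31). Mean FPKM of Irf1 was 1.74 in 3mo control, 6.02 in 3mo IOP, 3.12 in 18mo control, 8.65 in 18mo IOP, 1.67 in 4xIOP control and 12.7 in 4xIOP. The likeness is a description, and all genes compared share the depth and scaling of each library. The 10 genes make up the median profile they were ranked against, so their own ranks are partly set by it.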

How the data were processed

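Poly(A) RNA of whole retinas was sequenced in strand-specific libraries, 2 per group. Per the labels, reads were aligned with STAR 2.7.8a to mm10, and the authors used HOMER to count tags that map uniquely, by strand and in exons, with 1 isoform per locus and replicates not pooled. The deposited values are FPKM, in 2 separate tables, with each library scaled to its own total tags. The number of tags in each library was recovered from the FPKM, since FPKM times length is a whole number of reads (100% of the values checked, within 0.1 read).

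Tests used log2(FPKM + 0.5) of genes whose mean over a table reached 0.5 FPKM, in limma 3.58.1 under R 4.3.3 (lmFit, then eBayes with a mean-variance trend). All 8 libraries of the single-IOP table entered 1 fit of 4 groups (4 residual degrees of freedom) and the 4 repeated-IOP libraries alone (2 residual degrees of freedom), with Benjamini-Hochberg adjustment over all genes tested. The interaction was judged by adjusted p alone. The authors tested counts with DESeq2, whereas the files used here hold FPKM. The steps were tested on simulated data. The figures were drawn with matplotlib 3.10.9.

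The 10 genes and the other lists were chosen with earlier results of these data known. All 10 are named with each library's value. From the other lists, up to 4 called genes with the largest change are named per comparison, besides Psmb5, Psmb6, Psmb7, Psme1, Psme2, Irf1, Ifng, H2-Q4, H2-T23, Cd8a, Cd3e, Aif1 and Ptprc. Ifnb1, Ifnar2, Nrl, Sag, C1qa, C1qb, C1qc, P2ry12, Tmem119, Cx3cr1, Csf1r, Pmel and Tyrp1, and S100a8 and S100a9 in 18mo IOP, fall outside this rule and were chosen after their values were seen. The 8 genes with the nearest profile are named. A further gene of the regulator list is not reported here.

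Alternatives were a pseudocount of 0.1 or 1, no filter, a filter at a mean of 2 FPKM, quantile normalization, scaling by median-of-ratios size factors, no trend in eBayes, a replicate block, adjusted p alone, only the 2 groups compared, the transcript length trend removed (spline with 5 degrees of freedom), voom on the recovered reads, and each library left out, when the lone library of a group was taken to vary like the other groups. A crossed replicate block was added after seeing the data.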

Additional observations from a re-analysis of the deposited data

How the results depend on the processing

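No estimate of IOP against control changed sign for any of the 10 genes, at 3 months, at 18 months or after 4 elevations, in any setting run. The calls at 3 months were the least stable. The count of 4 fell to 0 with no filter on low values, with median-of-ratios size factors, with quantile normalization, with voom on the recovered reads and with the replicate block, and lay between 0 and 4 without each library in turn (the median between 1.38 and 1.87). The cause was not tested. At 18 months the count of 0 became 1 with the transcript length trend removed, and lay between 0 and 3 without each library (the median between 0.79 and 1.46). After 4 elevations the count was 9 to 10 without each library, and the median was 2.83 with a pseudocount of 1 and 2.86 to 3.55 without each library. For age in untreated eyes the count of 3 became 5 by adjusted p alone and 6 with the length trend removed, where the median was 1.26, and was 3 to 5 without each library. For age in treated eyes the count was 1 to 5 and the median 0.05 to 1.03 without each library.

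The labels give the groups the same replicate numbers but do not say that a number marks an animal. Deviations of same-numbered libraries correlated at -0.28 (3 months), -0.53 (18 months) and -0.29 (4xIOP) across genes, so the numbers were not taken to pair the libraries. The replicate block took the 3-month count to 0 and changed no other count of calls. The crossed pairing called 6, 4 and 10 of the 10 at 3 months, at 18 months and in 4xIOP.

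Signs changed in small estimates of the age comparisons and the interaction, none of them called in the reported fit. In untreated eyes Nlrc5 moved to -0.093 with the length trend removed, and Psmb9 ran from -0.072 to 0.73 without each library. In treated eyes B2m moved to 0.47 and Psmb8 to -0.014 with quantile normalization, and B2m to 0.73 and Psmb9 to 0.695 with the length trend removed. Without each library the treated eyes gave -0.46 to 0.11 for B2m, -0.008 to 0.25 for Psmb8, -0.80 to 0.31 for Psmb9, -0.56 to 1.045 for Tap1 and -0.014 to 1.32 for Nlrc5. The interaction of Nlrc5 was -0.16 with a pseudocount of 0.1 and -1.28 with voom, and that of Tapbp 0.081 with quantile normalization. Without each library the interaction ran from -0.36 to 0.98 for Nlrc5, -0.35 to 0.17 for Tapbp, -0.53 to 1.004 for Psmb10 and -0.63 to 0.088 for H2-D1. The fit of only the 2 groups compared was not run for 4xIOP, where it is the reported fit, or for the interaction. Values under 3 reads are below the limit of measurement, which none of the 10 genes reached.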

Other observations

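H2-D1 made up between 45.8% and 57.2% of the summed FPKM of H2-K1 and H2-D1 in the 8 single-IOP libraries and between 58.8% and 64.4% in the 4 repeated-IOP libraries. These shares rest on uniquely mapped tags of close copies.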
